A study of Mus musculus with 10 samples.

Results

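The 52 genes described here are the replication-dependent histone genes of the mouse histone clusters that were detected by RNA sequencing of hematopoietic stem cells (HSCs). They are the rows of the deposited expression table with a symbol beginning Hist1h, Hist2h, Hist3h or Hist4h and a log2 CPM value (reads per gene scaled to a common library total, on the log2 scale) above -2 in at least 2 of 10 libraries. The table holds 20270 genes and 56 such histone rows. The 4 rows outside the rule, Hist1h4a, Hist1h2af, Hist1h4f and Hist1h2ah, each passed -2 in 1 library. The 52 members comprise 5 linker histone H1 genes, 13 H2A, 15 H2B, 10 H3 and 9 H4 genes.

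Histones package DNA: H2A, H2B, H3 and H4 form the core that DNA wraps around, and H1 binds where the DNA enters and leaves it. Replication-dependent histone genes are transcribed mainly while a cell copies its DNA, from promoters activated through NPAT and cyclin E with CDK2. Their messages usually lack a poly(A) tail and end just after a short stem-loop, which SLBP binds to guide their processing, translation and decay. HSCs in adult marrow are mostly quiescent, and they enter the cell cycle when they have to rebuild the blood.

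The cells were sorted HSCs from the bone marrow of C57BL/6 recipients that had been transplanted with lineage-depleted marrow of Id1-/- or Id1+/+ donors. The 4 groups were Id1-/- stressed (KO stressed, 2 libraries), Id1+/+ stressed (WT stressed, 2), Id1-/- normal (KO normal, 3) and Id1+/+ normal (WT normal, 3). Id1 encodes an inhibitor of basic helix-loop-helix transcription factors. Recipients of both genotypes and conditions had received a transplant, the sample labels give 4 weeks after it where the design text gives 6 weeks, and neither source defines normal and stressed. The sources do not say whether libraries came from separate or pooled animals, so the p-values measure only the spread between these libraries, which may be technical.

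Of the 52 genes, 44 lie in the large Hist1 cluster on chromosome 13 (GRCm38, GENCODE vM21 annotation), 20 of them between 21715763 and 22043676 and 24 between 23531050 and 23764406. The Hist2 cluster on chromosome 3 holds 4 members, the Hist3 cluster on chromosome 11 holds 3, and Hist4h4 stands alone on chromosome 6. Hist1h2aj and Hist3h2bb-ps are annotated as pseudogenes. A stem-loop of 16 bases, a stem of 6 base pairs closed by a loop of 4 bases, was found downstream of the stop codon in the annotated transcripts of 38 members. It had the letters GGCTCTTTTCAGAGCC in 23 of them, from all classes except H4, and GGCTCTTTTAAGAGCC in 5 H2B and H3 genes. H4 genes carried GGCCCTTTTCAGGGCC in 5 cases and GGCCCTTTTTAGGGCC in 2.

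The sequences of 30 bases around the stem-loop are shown for the genes that the results below turn on, with the stem-loop in capitals, read from the GENCODE transcripts in the direction of transcription. The first 6 were called higher in stressed than in normal HSCs in at least 1 genotype, and Hist1h1c, Hist1h2be, Hist2h4 and Hist3h2ba were not separated between the conditions.
Hist1h1e: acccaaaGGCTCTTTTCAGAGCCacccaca
Hist1h2ab: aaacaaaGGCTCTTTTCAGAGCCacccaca
Hist1h2ae: aaacaaaGGCTCTTTTCAGAGCCattcact
Hist1h2bg: acccaaaGGCTCTTTTCAGAGCCacccata
Hist1h3d: ccccaaaGGCTCTTTTCAGAGCCacccccg
Hist1h4d: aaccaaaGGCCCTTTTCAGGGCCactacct
Hist1h1c: tccaaaaGGCTCTTTTCAGAGCCaccactc
Hist1h2be: aaccaaaGGCTCTTTTCAGAGCCacccaac
Hist2h4: ccctaacGGCCCTTTTTAGGGCCaaccaca
Hist3h2ba: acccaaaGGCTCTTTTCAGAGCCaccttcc
The 16 stem-loop letters of Hist1h1c, Hist1h2be and Hist3h2ba are those of Hist1h1e, Hist1h2ab, Hist1h2ae, Hist1h2bg and Hist1h3d.

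The estimated depth was 25700000 to 33000000 reads per library, so that 1 CPM stood for about 25.7 to 33.0 reads. Id1 went against the labels, with 8.44 to 13.2 CPM in the 5 libraries labelled KO and 1.28 to 4.39 CPM in the 5 labelled WT, and KO and WT name the labels throughout. None of 12 HSC markers checked was under 1 CPM in all libraries, and they summed to 3856 to 4214 CPM in the stressed and 4292 to 5293 CPM in the normal libraries. The sum of 6 megakaryocyte markers was 1294 to 1385 CPM in the stressed and 781 to 918 CPM in the normal libraries. The sum of the 8 listed B and plasma cell markers was 215 to 216 CPM in the KO stressed and 48.1 to 61.9 CPM in all other libraries, with Mzb1 under 1 CPM in every library. The other marker sums were 159 to 220 CPM in the stressed and 243 to 273 CPM in the normal libraries for 10 erythroid markers (Hba-a2 under 1 CPM in every library), 389 to 423 against 341 to 475 CPM for 10 granulocyte and monocyte markers, 10.2 to 14.1 against 6.08 to 9.74 CPM for 3 mast cell and basophil markers, 28.5 to 31.9 against 30.8 to 42.5 CPM for 4 markers of stroma and endothelium (Cdh5 under 1 CPM in every library), and 0.923 to 5.37 against 3.06 to 9.68 CPM for 2 T and NK cell markers. Several marker sums also lay apart between genotypes. The stem and progenitor sum was 3856 to 3975 CPM in KO stressed and 4203 to 4214 CPM in WT stressed. In normal libraries it was 4292 to 4557 CPM in KO and 4958 to 5293 CPM in WT. The granulocyte and monocyte sum was 432 to 475 CPM in KO normal and 341 to 381 CPM in WT normal. The erythroid sum was 208 to 220 CPM in KO stressed and 159 to 161 CPM in WT stressed. Their part in the genotype results was not tested. KO normal replicate A stood apart on the third principal component and WT stressed replicate A on the second. In bulk RNA, more cells in S phase and more histone RNA per cell cannot be told apart, nor can a change in cell types and a change within them.

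A few genes made up most of the signal of each class. Levels per length are given as CPM per kilobase of annotated exon (CPM per kb), in the order KO stressed, WT stressed, KO normal and WT normal, each a group mean. The highest member per length was the H4 gene Hist1h4d, at 78.1, 84.0, 67.7 and 54.6 CPM per kb, which made up 83.0% of the summed H4 CPM. It was followed by the H2A gene Hist1h2ae at 78.1, 53.6, 31.0 and 27.7 CPM per kb, with 46.4% of the summed H2A CPM. Hist1h2bc made up 47.1% of the summed H2B CPM and Hist1h1e 45.0% of the summed H1 CPM. Members differ in how much of their sequence is unique. The percentage of unique 50-base words was 89.8 for Hist1h4d, 69.4 for Hist1h2bc, 68.0 for Hist1h1e and 56.8 for Hist1h2ae. It was 75.2 for Hist1h3d, 26.6 for Hist1h3e, under 20 for 10 members and over 90 for 7. The handling of reads that match several genes is not given. Its part in the levels, orders and shares within classes, and in the low H3 levels below, was not tested.

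Within H1, Hist1h1e had 40.5, 39.999, 22.7 and 23.6 CPM per kb and Hist1h1b had 44.5, 45.0, 20.2 and 16.3 CPM per kb. Hist1h1c followed at 22.2, 21.2, 17.4 and 18.6 CPM per kb. Behind Hist1h2ae in H2A stood Hist1h2ab at 57.2, 43.1, 22.9 and 16.9 CPM per kb and Hist2h2ac at 14.2, 12.1, 8.33 and 4.31 CPM per kb. In the group means the order of H1e and H1b thus turned between conditions, and the H2A order held. The turn did not hold in each library, since Hist1h1e stayed above Hist1h1b per kb in KO stressed replicate A and WT stressed replicate B. In H2B, Hist1h2bc had 31.5, 26.3, 29.2 and 24.4 CPM per kb, Hist1h2bg 16.03, 15.9, 5.76 and 5.39 CPM per kb and Hist3h2ba 5.99, 6.10, 7.61 and 5.34 CPM per kb. The H3 genes were low: Hist1h3d had 5.09, 4.11, 1.23 and 1.32 CPM per kb, Hist1h3e 2.76, 2.68, 1.82 and 2.62 CPM per kb and Hist1h3a 1.86, 2.85, 0.897 and 1.18 CPM per kb. After Hist1h4d, the H4 genes Hist1h4i, at 11.6, 10.2, 9.66 and 6.51 CPM per kb, and Hist1h4h, at 4.69, 4.18, 3.06 and 1.84 CPM per kb, were next. Annotated exon lengths run from 312 bases for Hist1h4k to 7425 bases for Hist1h1d, so a gene whose annotation extends far past its stem-loop has a low value per length.

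**Figure D1:**
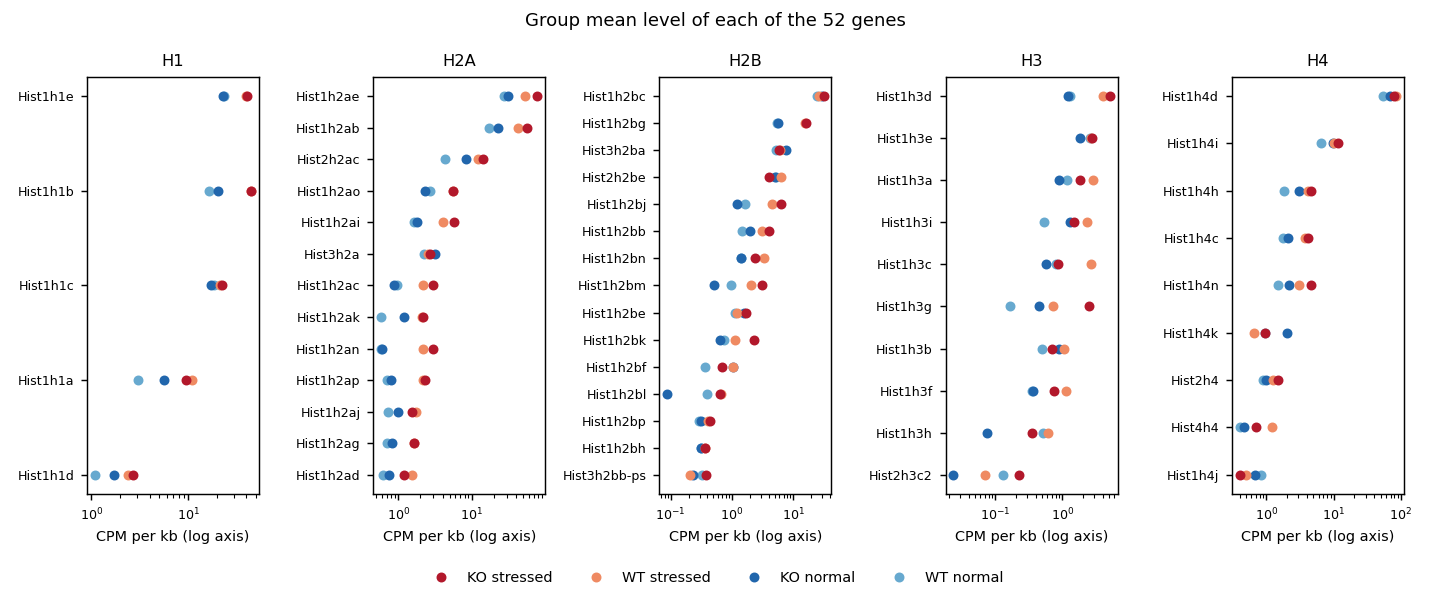
Mean level of each of the 52 histone cluster genes in the 4 groups, in CPM per kb of annotated exon on a log axis, with 1 panel per class and genes ordered by their mean over all libraries. Hist1h4d and Hist1h2ae lead at up to 84.0 and 78.1 CPM per kb, while the H3 gene Hist1h3d reaches 5.09.

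Summed over all 52 members, the level was 502 and 475 CPM in the KO stressed libraries and 464 and 453 CPM in the WT stressed libraries. The KO normal libraries had 332, 287 and 332 CPM and the WT normal libraries 271, 288 and 267 CPM. Every stressed library thus lay above every normal one, the group means being 1.54 times as high in KO stressed as in KO normal and 1.67 times as high in WT stressed as in WT normal. Class sums are given without a test.

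The size of the difference varied by class. The H1 sum averaged 173 ± 17.5 CPM in KO stressed, 170 ± 4.29 in WT stressed (SD, n = 2 each), 103 ± 12.3 in KO normal and 97.1 ± 5.68 CPM in WT normal (SD, n = 3 each). The H2A sum averaged 113 ± 2.80, 84.5 ± 6.05, 49.97 ± 3.44 and 40.6 ± 1.52 CPM in the same groups, and the H3 sum 13.9 ± 2.09, 14.4 ± 1.36, 5.73 ± 1.66 and 6.38 ± 0.768 CPM. Stressed means were 2.26 times the normal mean for H2A and 2.43 times for H3 in KO, and 2.08 and 2.25 times in WT. The H2B sum differed less, at 78.7 ± 6.59, 74.5 ± 3.35, 66.2 ± 8.25 and 57.9 ± 3.14 CPM, and KO stressed overlapped KO normal. The H4 sum was 110 ± 2.84, 115 ± 1.08, 92.2 ± 6.75 and 73.5 ± 1.63 CPM, with ratios of 1.19 in KO and 1.57 in WT. Without Hist1h4d the H4 log2 ratios of stressed over normal were 0.47 in KO and 0.82 in WT, against 0.25 and 0.65 with it, and without Hist1h2bc the H2B log2 ratio in WT was 0.57, against 0.36 with it.

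**Figure D2:**
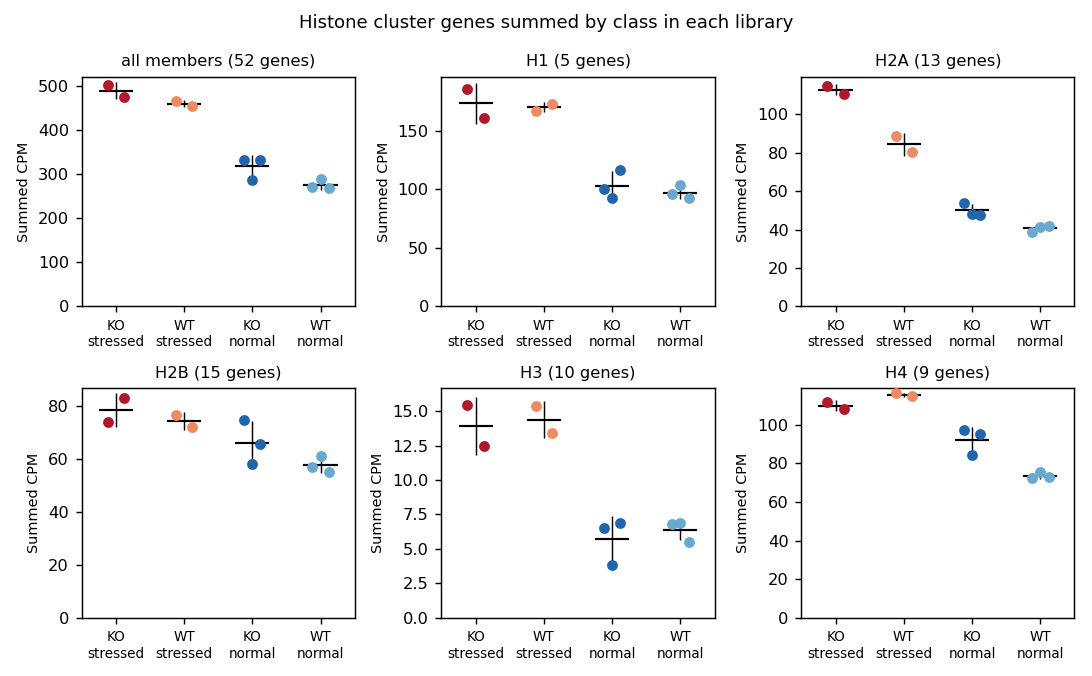
Summed CPM of the histone cluster genes of each class in each of the 10 libraries (points), with group mean (horizontal line) and SD (vertical line). Every stressed library lies above every normal library for all members, H1, H2A, H3 and H4, while the H2B panel shows KO stressed and KO normal libraries at overlapping values.

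Between stressed and normal HSCs, genes were tested with limma on all genes with a log2 CPM above 0 in at least 2 libraries. This filter kept 15143 genes and 36 of the 52 members, namely 5 H1, 10 H2A, 9 H2B, 5 H3 and 7 H4 genes. A gene is called when its Benjamini-Hochberg adjusted p over all genes tested is under 0.05. In KO, 7 members were called higher in stressed than in normal HSCs (2.23% of all genes tested were) and 0 lower (2.28% of all genes). At an unadjusted p under 0.05, limma placed 13 members higher (8.41% of all genes) and 0 lower (9.48%). In WT, 8 members were called higher (1.55% of all genes) and 0 lower (1.75%), with 13 higher (7.98%) and 0 lower (8.84%) at an unadjusted p under 0.05. In KO 33 of 36 differences were above 0 (50.1% of all genes), and in WT 36 of 36 (51.1%). The KO count of 7 was 2 without KO stressed replicate A or without KO stressed replicate B, and 4 without KO normal replicate C. The WT count of 8 was 4 without WT stressed replicate A, WT stressed replicate B, WT normal replicate A or WT normal replicate C. The median log2 difference over the 36 members was 0.81 in KO, against 0.00 over all genes tested, and 1.21 in WT, against 0.01 over all genes.

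Groups are called separated when the lowest value of one lies above the highest of the other. By that measure 20 of 36 members were separated upward in KO (16.5% of all genes tested) and 27 of 36 in WT (19.7% of all genes), with 0 members separated downward in either (16.6% and 16.7% of all genes). Of the 36, 8 exceeded 0 in stressed libraries alone: Hist1h2ai, Hist1h2ak, Hist1h2an, Hist1h2ap, Hist1h2bm, Hist1h2bn, Hist1h3c and Hist1h3f. These were tested because they were high under stress, which fixes their direction between conditions. Hist1h2bj and Hist1h4n exceeded 0 in 5 libraries each, the 4 stressed among them, so they too passed because of the stressed libraries. Hist1h3a exceeded 0 in 4 libraries, most of them stressed, and would not have passed on its normal libraries alone. The counts were also taken over the 26 members with a mean above 0 over all libraries. That mean includes the stressed libraries and keeps Hist1h2bj, so this selection is reduced but not removed. Among the 26 members, 15 were separated upward in KO (17.2% of the 13256 genes with such a mean) and 18 in WT (20.7%), with median differences of 0.74 and 1.05. The 16 members not tested stayed low in most libraries, and 11 of them had a higher median in the 4 stressed than in the 6 normal libraries.

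The genes called in both genotypes were Hist1h1b, Hist1h1e, Hist1h2ab, Hist1h2ae and Hist1h2bg. Hist1h2ac and Hist1h3d were called in KO, and Hist1h1a, Hist1h1d and Hist1h4d in WT. No member was called for a difference between the KO and WT changes, so these lists do not show that the genotypes responded differently.

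**Figure D3:**
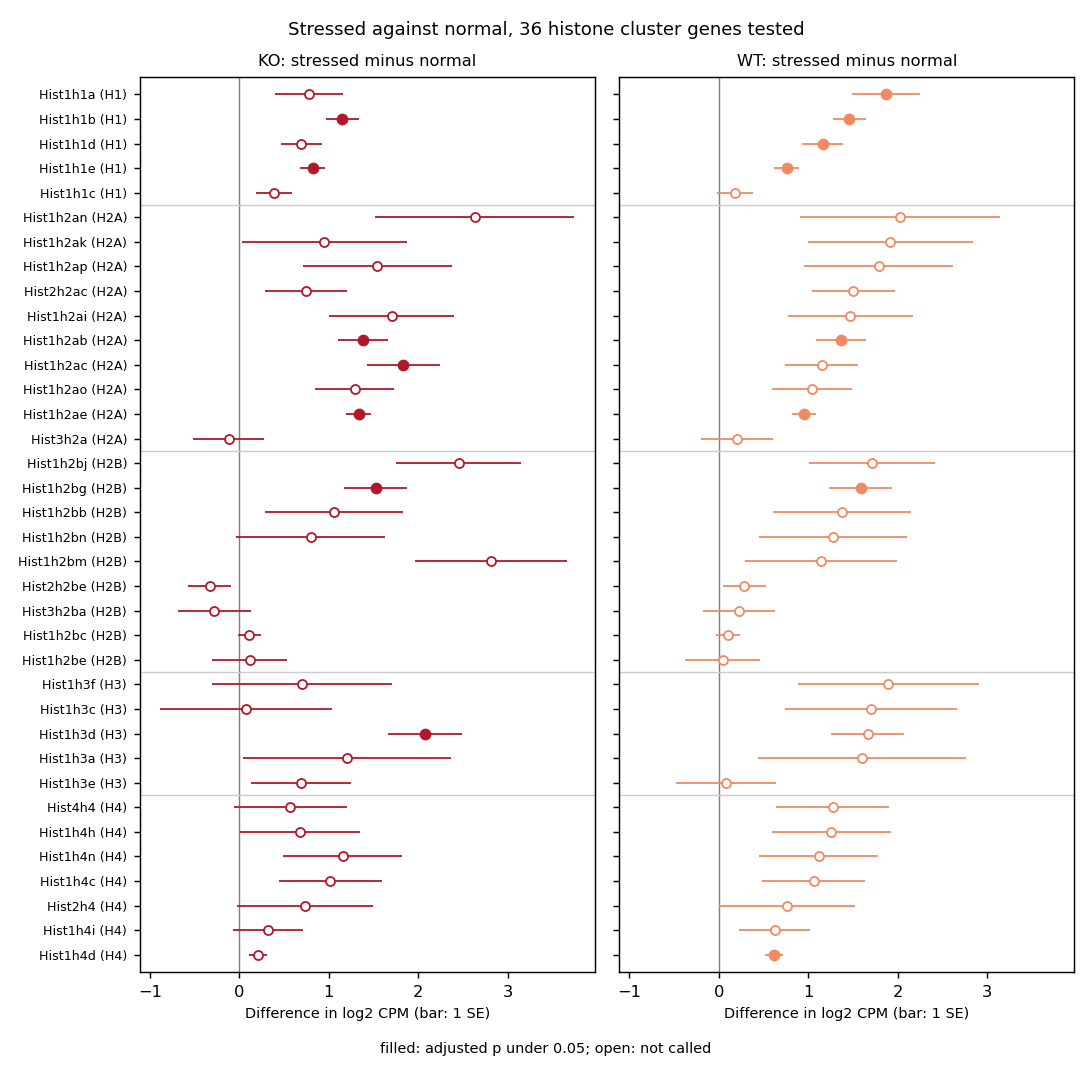
Difference in log2 CPM between stressed and normal libraries for the 36 genes tested, in KO (left) and WT (right), with bars of 1 SE and filled points for an adjusted p under 0.05. The 7 filled points in KO and the 8 in WT all lie to the right of 0, and Hist1h2bc, Hist1h2be, Hist2h2be, Hist3h2a and Hist3h2ba lie between -0.33 and 0.29 in both panels.

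Of the 5 linker histone genes, 2 were called higher in KO and 4 in WT. Hist1h1b, the H1.5 gene, stood at 32.8 and 33.3 CPM in KO stressed and 36.2 and 30.7 CPM in WT stressed, against 12.6, 14.98 and 17.5 CPM in KO normal and 12.3, 13.1 and 11.1 CPM in WT normal. All stressed libraries were well above all normal ones. Its log2 difference was 1.15 ± 0.18 (SE) in KO with limma's adjusted p of 0.00492, and 1.46 ± 0.18 in WT with an adjusted p of 0.00164.

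Hist1h1e, the H1.4 gene and the most abundant linker histone by CPM, had 89.5 and 66.8 CPM in KO stressed, 71.5 and 82.8 CPM in WT stressed, 42.5, 43.0 and 46.1 CPM in KO normal and 43.4, 49.0 and 44.2 CPM in WT normal. The conditions again did not overlap. It rose by 0.82 ± 0.14 in KO (adjusted p = 0.00717) and 0.76 ± 0.14 in WT (adjusted p = 0.0135). Its annotated exons overlap those of Hist1h2be on the same strand, so reads in the shared part cannot be assigned to either gene.

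Hist1h1a, the H1.1 gene, was at 7.44 and 6.61 CPM in KO stressed and 10.1 and 6.26 CPM in WT stressed, with 4.97, 4.08 and 3.40 CPM in KO normal and 1.73, 3.28 and 1.82 CPM in WT normal. The WT difference of 1.87 ± 0.38 was called (adjusted p = 0.0220), and the KO difference was 0.77 ± 0.38 (adjusted p = 0.320). Hist1h1d, the H1.3 gene, had 21.3 and 19.25 CPM in KO stressed, 18.9 and 17.1 CPM in WT stressed, 13.3, 10.1 and 14.7 CPM in KO normal and 9.80, 7.44 and 7.03 CPM in WT normal. It rose by 1.16 ± 0.23 in WT (adjusted p = 0.0186) and differed by 0.69 ± 0.23 in KO (adjusted p = 0.130). For both genes the conditions were separated in each genotype.

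Hist1h1c, the H1.2 gene, was the linker histone whose conditions overlapped. It had 34.4 and 34.8 CPM in KO stressed, 30.1 and 36.1 CPM in WT stressed, 26.5, 20.1 and 34.6 CPM in KO normal and 28.8, 30.4 and 27.9 CPM in WT normal, with differences of 0.39 ± 0.20 in KO (adjusted p = 0.352) and 0.18 ± 0.20 in WT (adjusted p = 0.705). The H1 genes are less alike than the core histone genes, with 72.4% to 84.5% identity of the coding sequence to the closest other gene.

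Among the H2A genes, which encode the core histone that pairs with H2B, Hist1h2ae gave the smallest p of any member in KO. It had 57.8 and 52.2 CPM in KO stressed, 39.2 and 36.3 CPM in WT stressed, 22.7, 20.2 and 22.5 CPM in KO normal and 18.5, 20.4 and 19.6 CPM in WT normal. The KO stressed libraries were highest, the WT stressed next, and no group of one condition reached the other. It rose by 1.33 ± 0.14 in KO (adjusted p = 0.000338) and by 0.95 ± 0.14 in WT (adjusted p = 0.00364).

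Hist1h2ab had 27.9 and 26.2 CPM in KO stressed, 21.7 and 19.0 CPM in WT stressed, 15.4, 9.03 and 8.10 CPM in KO normal and 6.77, 7.41 and 9.83 CPM in WT normal. It rose by 1.38 ± 0.28 in KO (adjusted p = 0.0173) and 1.36 ± 0.28 in WT (adjusted p = 0.0235). Hist1h2ac had 6.21 and 8.66 CPM in KO stressed, 4.79 and 5.99 CPM in WT stressed, 1.97, 3.23 and 1.38 CPM in KO normal and 2.64, 2.21 and 2.41 CPM in WT normal. Its rise of 1.83 ± 0.41 in KO was called (adjusted p = 0.0279), and its difference in WT was 1.15 ± 0.41 (adjusted p = 0.166), with separated conditions in both genotypes. Without KO stressed replicate A, KO stressed replicate B, KO normal replicate A or KO normal replicate C the KO call of Hist1h2ac was lost.

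Hist2h2ac, from the Hist2 cluster, differed by 0.74 ± 0.46 in KO (adjusted p = 0.444) and 1.51 ± 0.46 in WT (adjusted p = 0.113). Its values were 5.60 and 9.16 CPM in KO stressed, 8.401 and 4.19 CPM in WT stressed, 5.29, 3.79 and 3.91 CPM in KO normal and 3.32, 2.08 and 1.32 CPM in WT normal. Among members with separated groups, the low-abundance H2A genes Hist1h2an and Hist1h2ak and the H3 gene Hist1h3f had the largest differences in WT, all 3 having passed the filter through stressed libraries alone. Those of Hist1h2an and Hist1h2ak were 2.02 ± 1.12 and 1.92 ± 0.92 in WT, with adjusted p of 0.394 and 0.323. Hist1h2an stood at 1.22 and 1.11 CPM in KO stressed and 0.720 and 0.969 CPM in WT stressed, against 0.383, 0.259 and 0.0675 CPM in KO normal and 0.312, 0.286 and 0.0970 CPM in WT normal. In KO its difference was 2.63 ± 1.12 (adjusted p = 0.245).

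Hist3h2a stood apart within the class, with 6.75 and 4.95 CPM in KO stressed and 5.36 and 5.505 CPM in WT stressed, against 3.58, 8.92 and 7.76 CPM in KO normal and 3.65, 5.13 and 5.62 CPM in WT normal. Its conditions overlapped and its differences were -0.12 ± 0.40 in KO and 0.20 ± 0.40 in WT. The coding sequences of Hist1h2ao and Hist1h2ap are identical. Those of the other protein-coding H2A members of Hist1 are at least 97.4% identical to another. The split of reads between such copies is therefore uncertain. Close copies also occur in the other core classes. Hist1h2bc is 98.9%, Hist1h3d 98.8% and Hist1h4d 94.2% identical to the closest other gene, so the same limit applies there. Each of the 13 H2A members also overlaps another annotated gene on the opposite strand, and the strand setting of the counting is not given.

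Among the H2B genes, Hist1h2bg was the member called. Hist1h2bg had 8.87 and 10.9 CPM in KO stressed, 10.7 and 8.96 CPM in WT stressed, 5.01, 2.78 and 2.89 CPM in KO normal and 3.03, 4.34 and 2.63 CPM in WT normal. Stressed and normal libraries were separated, and it rose by 1.52 ± 0.35 in KO (adjusted p = 0.0330) and 1.59 ± 0.35 in WT (adjusted p = 0.0333). Both calls of Hist1h2bg were close to the threshold and were lost without any of several libraries, among them either library of its own stressed group.

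Hist1h2bc, the most abundant H2B gene, had 37.7 and 35.2 CPM in KO stressed, 31.0 and 29.7 CPM in WT stressed, 35.6, 30.8 and 35.0 CPM in KO normal and 27.3, 28.4 and 28.8 CPM in WT normal. Conditions overlapped in KO and were separated by a narrow gap in WT, with differences of 0.11 ± 0.13 (adjusted p = 0.733) and 0.11 ± 0.13 (adjusted p = 0.738). Hist2h2be had 8.30 and 13.01 CPM in KO stressed, 15.2 and 18.6 CPM in WT stressed, 13.8, 11.7 and 13.8 CPM in KO normal and 13.9, 16.2 and 11.7 CPM in WT normal. It differed by -0.33 ± 0.24 in KO (adjusted p = 0.535) and 0.29 ± 0.24 in WT (adjusted p = 0.603). Hist1h2be and Hist3h2ba also overlapped in both genotypes, the second with 3.24 and 4.12 CPM in KO stressed, 3.72 and 3.77 CPM in WT stressed, 6.41, 2.85 and 4.75 CPM in KO normal and 3.28, 2.46 and 4.09 CPM in WT normal.

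Among members with separated groups, the low H2B genes Hist1h2bm and Hist1h2bj and the H2A gene Hist1h2an had the largest differences in KO. Of these, Hist1h2bm and Hist1h2an passed the filter through stressed libraries alone, and Hist1h2bj would not have passed without them. Hist1h2bm was at 1.89 and 1.42 CPM in KO stressed and 1.25 and 0.934 CPM in WT stressed, against 0.160, 0.160 and 0.499 CPM in KO normal and 0.680, 0.319 and 0.543 CPM in WT normal. It differed by 2.81 ± 0.85 in KO (adjusted p = 0.0991) and 1.14 ± 0.85 in WT (adjusted p = 0.549). Hist1h2bj, at 3.03 and 2.94 CPM in KO stressed and 1.89 and 2.28 CPM in WT stressed against 0.623, 0.687 and 0.383 CPM in KO normal and 1.39, 0.319 and 0.580 CPM in WT normal, differed by 2.45 ± 0.70 (adjusted p = 0.0807) and 1.71 ± 0.70 (adjusted p = 0.243). Neither gene passed the threshold, and at such levels the SE is several times that of Hist1h2bc.

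H3 and H4 form the central tetramer of the nucleosome. Per kb, Hist1h3d was above Hist1h3e in the stressed groups and below it in the normal groups. Hist1h3d had 5.42 and 7.29 CPM in KO stressed, 5.23 and 5.03 CPM in WT stressed, 1.61, 1.09 and 1.89 CPM in KO normal and 1.80, 1.23 and 1.92 CPM in WT normal. All stressed libraries were at least 5.03 CPM and all normal libraries at most 1.92 CPM. It rose by 2.07 ± 0.41 in KO (adjusted p = 0.0152), and its difference of 1.66 ± 0.41 in WT had an adjusted p of 0.0545. Without either KO stressed library the KO call of Hist1h3d was lost.

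The other H3 genes tested had between 0.0970 and 2.91 CPM and none was called. Hist1h3e differed by 0.69 ± 0.56 in KO and 0.08 ± 0.56 in WT (adjusted p = 0.585 and 0.961), and Hist1h3a by 1.201 ± 1.17 and 1.60 ± 1.17 (adjusted p = 0.660 and 0.538). Without its stressed libraries Hist1h3a would not have passed the filter. Hist1h3f had 1.62 and 0.295 CPM in KO stressed and 1.18 and 1.73 CPM in WT stressed, against 0.717, 0.259 and 0.416 CPM in KO normal and 0.167, 0.523 and 0.648 CPM in WT normal. Its groups overlapped in KO and were separated in WT, where the difference was 1.90 ± 1.01 (adjusted p = 0.375).

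Hist1h4d had 91.4 and 86.4 CPM in KO stressed and 94.9 and 96.3 CPM in WT stressed. The KO normal libraries had 80.2, 69.3 and 81.5 CPM and the WT normal libraries 62.1, 64.2 and 60.3 CPM. Stressed libraries were above normal ones in both genotypes, with a rise of 0.62 ± 0.10 in WT (adjusted p = 0.00716) and a difference of 0.21 ± 0.10 in KO (adjusted p = 0.313). The remaining 6 H4 genes tested all lay above 0 in both genotypes, at 0.32 to 1.16 in KO and 0.62 to 1.27 in WT, without a call. Hist1h4h, for example, had 3.03 and 1.38 CPM in KO stressed, 1.76 and 2.17 CPM in WT stressed, 2.42, 0.760 and 1.13 CPM in KO normal and 0.790, 1.27 and 0.543 CPM in WT normal. Hist1h4i differed by 0.32 ± 0.39 and 0.62 ± 0.39 (adjusted p = 0.747 and 0.467), with overlapping conditions in both genotypes.

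**Figure D4:**
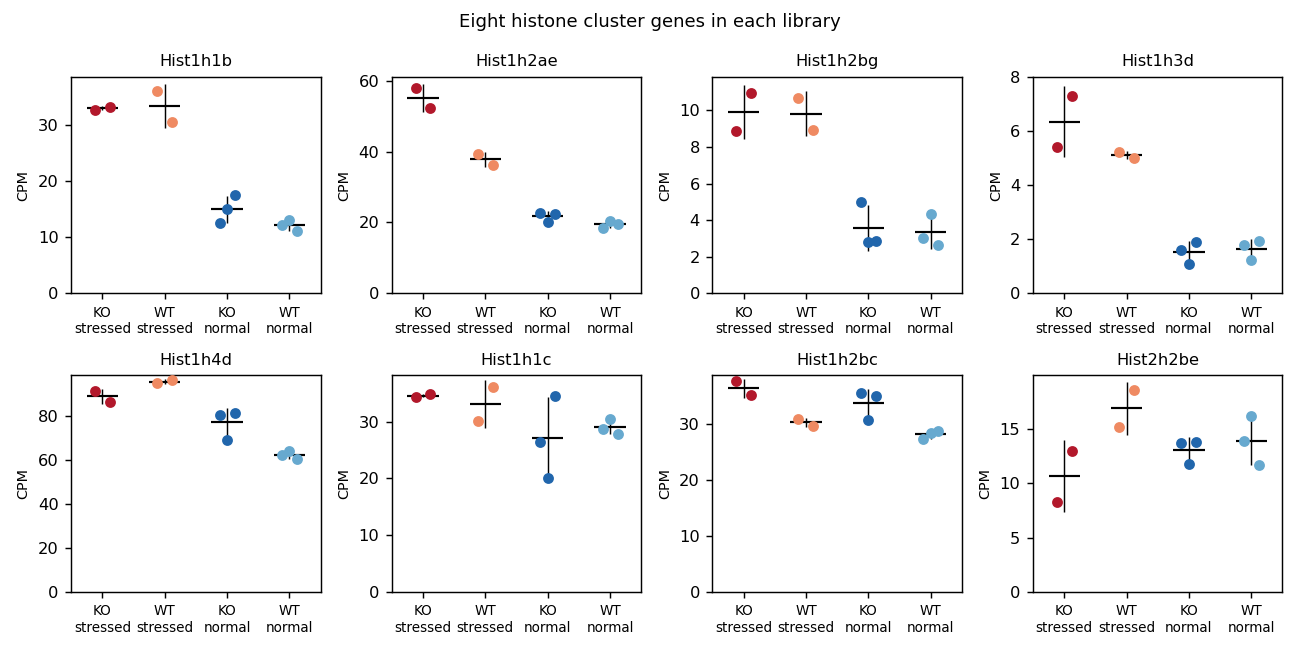
CPM of 8 histone cluster genes in each library (points), with group mean (horizontal line) and SD (vertical line), in KO stressed, WT stressed, KO normal and WT normal. Stressed libraries stand above normal libraries for Hist1h1b, Hist1h2ae, Hist1h2bg, Hist1h3d and Hist1h4d, while Hist1h1c and Hist2h2be overlap in both genotypes and Hist1h2bc does so in KO.

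In 8 of the 36 genes tested the conditions were separated in neither genotype: Hist1h1c, Hist1h2be, Hist1h3a, Hist1h4i, Hist2h2be, Hist2h4, Hist3h2a and Hist3h2ba. Their annotated transcripts were looked at for the poly(A) signal AATAAA in the last 40 bases or for more than 1 exon, a property chosen after the values were seen. It applied to 11 members, 9 of them tested, and to Hist1h1c, Hist1h2be, Hist2h2be, Hist2h4, Hist3h2a and Hist3h2ba among the 8 named here. The 9 tested were Hist1h1c, Hist1h2ae, Hist1h2bc, Hist1h2be, Hist2h2be, Hist2h4, Hist3h2a, Hist3h2ba and Hist4h4. Their median log2 difference was 0.11 in KO and 0.22 in WT, and 1 and 3 of them were separated upward. All 9 have a mean above 0 over all libraries, as do 17 of the other genes tested, whose medians were 1.01 and 1.26, with 14 and 15 separated upward (all genes with such a mean, 17.2% and 20.7%). Since the property was picked from the genes that were not separated, this split is a description and supports nothing. Not all 9 had small differences. Hist1h2ae, with AATAAA near its annotated end, rose in both genotypes. Hist4h4 differed by 0.57 in KO and 1.27 in WT, where it was separated upward, and Hist2h4 by 0.74 and 0.76. How the libraries selected RNA is not given beyond total RNA and standard Illumina protocols, and whether the capture of messages with and without a tail differed between libraries was not tested. Of 32 other RNAs without a standard poly(A) tail that were listed for comparison, 14 are in the table and 6 passed the filter. Among them Malat1 fell by 0.73 in KO and by 0.58 in WT (adjusted p = 6.15e-05 and 0.000404), and the ribosomal RNA row Rn18s-rs5 fell by 0.90 and 0.45 (adjusted p = 2.42e-06 and 0.000656). In each genotype these 2 were the only ones called (2.28% of all genes tested were called lower in KO and 1.75% in WT). Of the 6 tested, 2 lay above 0 in each genotype. The medians over the 6 were -0.72 in KO and -0.004 in WT, against 0.00 and 0.01 over all genes tested. The summed level of all 14 was 1751 to 2090 CPM in the stressed and 2771 to 3394 CPM in the normal libraries, opposite in direction to the histone sum. The part of this difference in the histone result was not tested.

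Position in the genome was described alongside. In the Hist1 block from 21715763 to 22043676, 11 genes were tested, but 6 of them exceeded 0 in stressed libraries alone. The 4 with a mean above 0 over all libraries, Hist1h2bj among them, had medians of 1.22 in KO and 1.25 in WT. In the block from 23531050 to 23764406, 19 genes were tested, and the 16 with such a mean had medians of 0.80 and 1.11. Of the 19, 6 were called higher in KO and 7 in WT (2.23% and 1.55% of all genes tested). Of the 11 in the other block, 1 was called in each genotype, and a difference between blocks was not tested. The 2 tested genes of Hist3 had medians of -0.20 and 0.21.

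H2A and H2B genes often lie head to head and share the stretch between their starts. Such pairs, with 172 to 295 bases between the annotated starts, occurred 10 times among the members, and in 4 both genes were tested. Hist1h2ae and Hist1h2bg, with 175 bases between them, both rose in both genotypes. Hist1h2ac, 250 bases from Hist1h2bc, differed by 1.83 in KO and 1.15 in WT, beside 0.11 and 0.11 for Hist1h2bc. Hist2h2ac and Hist2h2be, with 238 bases between them, differed by 0.74 against -0.33 in KO and 1.51 against 0.29 in WT. The fourth such stretch joins Hist1h2ak and Hist1h2bn, which differed by 0.95 and 0.80 in KO and 1.92 and 1.27 in WT, without a call.

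RefSeq promoters (GRCm38.p6, 250 bases before to 50 after the start) were found for 45 members, in 46 windows, and searched on both strands for 4 motifs known from histone promoters. The H1 box AAACACA was present in 4 of 5 H1 windows, against 7.18% of all 32851 promoters. The octamer ATTTGCAT, which OCT1 binds, was present in 5 of 12 H2A and 5 of 13 H2B windows, against 1.74% of all. CCAAT stood in 40 of 46 windows (37.41% of all) and TATAAA in 27 of 46 (13.62% of all), and no 2 different motifs overlapped in these windows. The windows are not independent, since those of head-to-head genes can overlap and Hist1h2be has more than 1 window. The octamer between Hist1h2ae and Hist1h2bg, for example, counts for both genes. Shown are the windows of Hist1h1b, which rose, of Hist1h1c, whose conditions overlapped, and of Hist1h2bg, whose stretch also holds the start of Hist1h2ae. Capitals mark the 4 motifs on either strand.
Hist1h1b, chr13:21780576-21780875, minus strand: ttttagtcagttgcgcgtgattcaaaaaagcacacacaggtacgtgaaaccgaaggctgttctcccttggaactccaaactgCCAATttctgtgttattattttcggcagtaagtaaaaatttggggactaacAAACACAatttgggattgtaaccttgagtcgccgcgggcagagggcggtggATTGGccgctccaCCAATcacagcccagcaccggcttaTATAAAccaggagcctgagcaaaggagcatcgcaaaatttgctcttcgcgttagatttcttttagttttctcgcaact
Hist1h1c, chr13:23738557-23738856, plus strand: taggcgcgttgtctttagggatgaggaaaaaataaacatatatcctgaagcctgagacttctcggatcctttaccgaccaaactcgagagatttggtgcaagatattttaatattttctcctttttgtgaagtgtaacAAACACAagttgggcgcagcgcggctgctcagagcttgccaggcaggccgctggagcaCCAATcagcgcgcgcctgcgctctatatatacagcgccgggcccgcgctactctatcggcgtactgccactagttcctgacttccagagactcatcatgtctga
Hist1h2bg, chr13:23571150-23571449, plus strand: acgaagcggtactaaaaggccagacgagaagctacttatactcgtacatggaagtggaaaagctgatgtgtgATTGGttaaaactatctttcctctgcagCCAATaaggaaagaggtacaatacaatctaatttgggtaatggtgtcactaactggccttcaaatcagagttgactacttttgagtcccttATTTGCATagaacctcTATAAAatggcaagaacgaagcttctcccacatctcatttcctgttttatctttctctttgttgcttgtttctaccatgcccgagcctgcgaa
Hist1h1b and Hist1h1c both hold 1 H1 box, with 3 CCAAT matches in Hist1h1b and 1 in Hist1h1c. The Hist1h2bg window holds 1 octamer, 2 CCAAT matches and 1 TATAAA. A match is a run of letters and was not tested as a binding site.

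Between genotypes, few histone differences stood out from the background. In stressed HSCs 0 of 36 members were called between KO and WT (0.145% of all genes tested were, in either direction), with 1 higher (4.41%) and 1 lower (4.46%) at an unadjusted p under 0.05 in limma. Of the 36 differences 26 were above 0 (49.9% of all genes). Their median log2 difference was 0.09, against 0.00 over all genes. KO was separated above WT in 10 members (19.2% of all genes) and below it in 3 (19.9% of all genes). In normal HSCs 0 were called as well (1.56% of all genes), with 5 higher (7.49%) and 0 lower (6.39%) at an unadjusted p under 0.05 and 23 differences above 0 (48.5%). The median was 0.21, against -0.01 over all genes. There, KO was separated above WT in 6 members (10.9%) and below in 1 (8.64%).

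Hist1h2ae was the gene with the smallest p between stressed genotypes. Its 57.8 and 52.2 CPM in KO stressed, against 39.2 and 36.3 CPM in WT stressed, did not overlap, with a difference of 0.54 ± 0.15 and an adjusted p of 0.307. Hist1h2bm and Hist1h4n, at 0.60 ± 0.93 and 0.59 ± 0.73, had the largest differences among the members separated upward. Hist1h4n stood at 1.93 and 1.98 CPM in KO stressed against 1.47 and 1.14 CPM in WT stressed, and adjusted p was 0.905 for Hist1h2bm and 0.871 for Hist1h4n. In the downward direction stood Hist1h3c, at 0.957 and 0.143 CPM in KO stressed and 2.24 and 1.18 CPM in WT stressed (-2.14 ± 1.05, adjusted p = 0.597), which passed the filter through the WT stressed libraries alone, Hist2h2be (-0.70 ± 0.27, adjusted p = 0.479) and Hist1h4d (-0.11 ± 0.11, adjusted p = 0.838). The H2A class sum showed the same order as Hist1h2ae, with 115 and 111 CPM in KO stressed and 88.8 and 80.2 CPM in WT stressed. The KO stressed libraries are also those with 215 to 216 CPM of B and plasma cell markers, whose part in these values was not tested.

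In normal HSCs the largest upward differences among separated members were Hist2h2ac (1.03 ± 0.41, adjusted p = 0.287), Hist1h2ak (0.99 ± 0.82, adjusted p = 0.646) and Hist1h1a (0.91 ± 0.34, adjusted p = 0.257). Hist1h2ak had 0.383, 0.292 and 0.717 CPM in KO normal and 0.268, 0.286 and 0.132 CPM in WT normal. Hist1h4d was separated too, at 80.2, 69.3 and 81.5 CPM in KO normal against 62.1, 64.2 and 60.3 CPM in WT normal (0.31 ± 0.09, adjusted p = 0.148). The H1 gene Hist1h1d had a difference of 0.65 ± 0.20 (adjusted p = 0.176). Hist1h3c was the member separated downward, at 0.349, 0.259 and 0.476 CPM in KO normal and 0.543, 0.483 and 0.480 CPM in WT normal (-0.52 ± 0.86, adjusted p = 0.846). The H2A sum was separated here as well, at 53.9, 48.3 and 47.7 CPM in KO normal against 38.9, 41.4 and 41.6 CPM in WT normal. So was the H4 sum, at 97.2, 84.6 and 95.0 against 72.3, 75.3 and 72.7 CPM, while the H1, H2B and H3 sums overlapped.

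**Figure D5:**
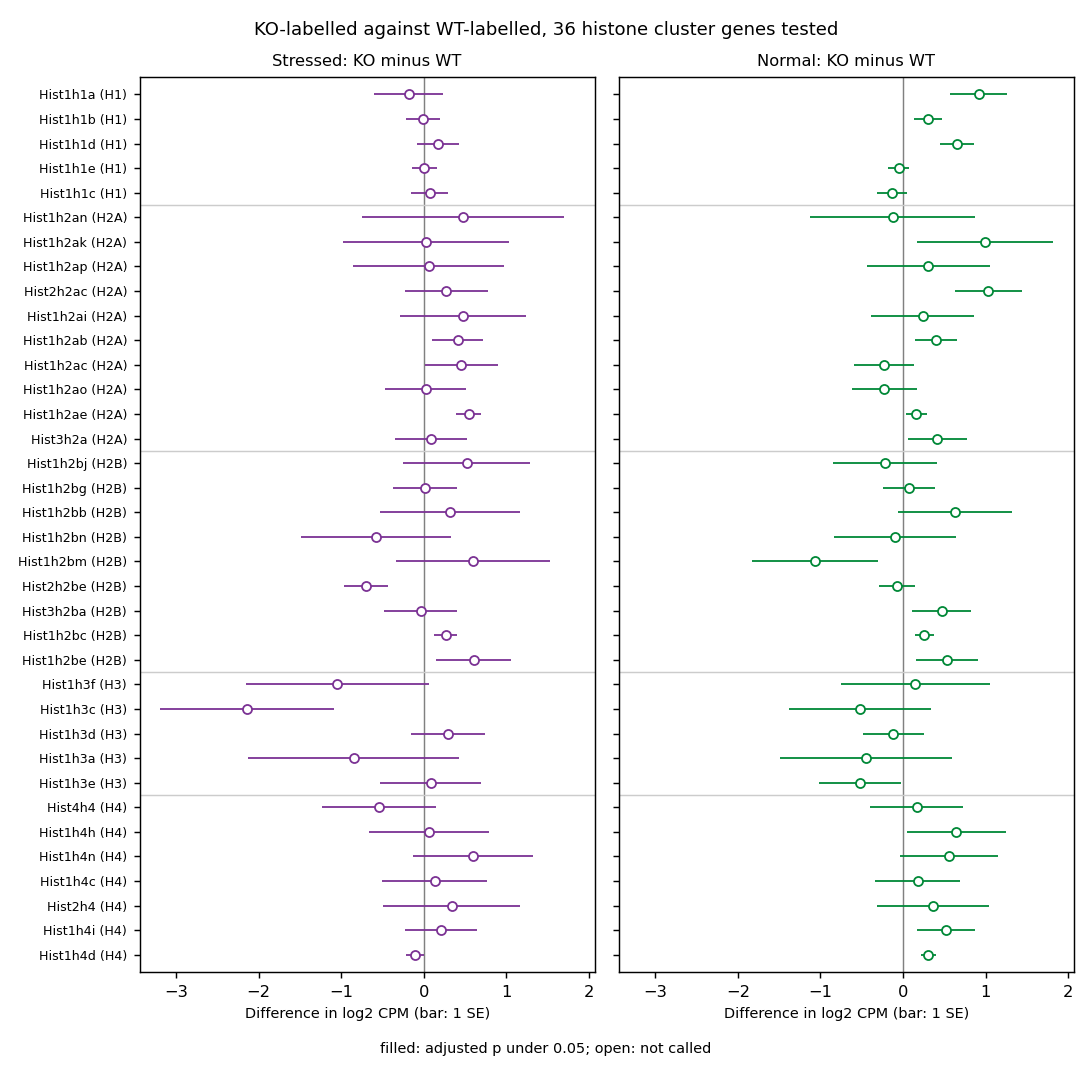
Difference in log2 CPM between KO and WT libraries for the 36 genes tested, in stressed (left) and normal (right) HSCs, with bars of 1 SE. All points are open, since 0 of 36 genes had an adjusted p under 0.05 in either condition, and the bars of genes with few reads, such as Hist1h3a and Hist1h2an, are wide.

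For the difference between the KO and the WT change under stress, 0 members were called (0.0198% of all genes tested, in either direction), with 0 higher (4.49%) and 1 lower (4.66%) at an unadjusted p under 0.05 in limma and 15 of 36 differences above 0 (49.5%). The lower gene was Hist1h4d, whose change was 0.41 ± 0.14 lower in KO than in WT on the log2 scale (adjusted p = 0.423). The median over the 36 members was -0.15, against 0.00 over all genes. The stressed against normal differences of the 2 genotypes and the genotype differences of the 2 conditions rest on the same 4 groups, so they are not independent of each other.

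The genes that make, carry and replace histones were looked at beside the cluster genes. Of 26 genes for histone gene transcription and message processing, 2 were called higher in KO stressed than in KO normal HSCs: Slbp, the stem-loop binding protein, with 220 and 239 CPM in KO stressed against 181, 180 and 172 CPM in KO normal (0.37 ± 0.09, adjusted p = 0.0343), and Cpsf2, a subunit of the cleavage machinery (0.42 ± 0.07, adjusted p = 0.00793). Of all genes tested, 2.23% were called higher in KO and 1.55% in WT. In WT 0 of the 26 listed genes were called. There Slbp had 201 and 230 CPM in WT stressed and 161, 174 and 187 CPM in WT normal (0.31 ± 0.09, adjusted p = 0.0805), and Cdk2, the kinase that acts on NPAT with cyclin E, differed by 0.24 ± 0.08 (adjusted p = 0.167). Npat, the activator of histone promoters, differed by 0.02 ± 0.13 in KO and 0.06 ± 0.13 in WT (adjusted p = 0.955 and 0.862). The list's medians were 0.20 in KO and 0.07 in WT, against 0.00 and 0.01 over all genes tested.

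Of 27 chaperone and deposition genes, 3 were called higher in KO and 0 in WT (2.23% and 1.55% of all genes tested). They were Anp32e, which removes H2A.Z from nucleosomes (0.44 ± 0.06, adjusted p = 0.00231), Nap1l1, an H2A-H2B chaperone (0.47 ± 0.08, adjusted p = 0.00617), and Mcm2, a helicase subunit that also binds H3 and H4 (0.28 ± 0.06, adjusted p = 0.0259). In WT the smallest p values were those of Asf1b, an H3-H4 chaperone, at 0.53 ± 0.13 (adjusted p = 0.0596) and Anp32e at 0.21 ± 0.06 (adjusted p = 0.0981). The list's medians were 0.14 and 0.09.

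Histone variant genes outside the clusters encode proteins that replace the standard histones, several of them outside S phase. Of 11 tested, 4 were called higher in KO and 7 in WT (2.23% and 1.55% of all genes tested). None was called lower, and the medians were 0.40 and 0.36. H2afz, which encodes H2A.Z, had 684 and 668 CPM in KO stressed and 653 and 617 CPM in WT stressed, against 538, 484 and 494 CPM in KO normal and 451, 444 and 459 CPM in WT normal. It rose by 0.42 ± 0.05 in KO (adjusted p = 0.00111) and 0.49 ± 0.05 in WT (adjusted p = 0.000637). H2afx, the variant phosphorylated at DNA breaks, rose by 0.61 ± 0.09 and 0.62 ± 0.09 (adjusted p = 0.00260 and 0.00332), and the macroH2A gene H2afy by 0.40 ± 0.04 and 0.26 ± 0.04 (adjusted p = 0.000346 and 0.00644). Cenpa, the centromeric H3, rose by 0.57 ± 0.12 in KO and 0.64 ± 0.12 in WT (adjusted p = 0.0173 and 0.0121).

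The H3.3 genes were called in WT alone, H3f3b at 0.28 ± 0.04 (adjusted p = 0.00320) and H3f3a at 0.26 ± 0.06 (adjusted p = 0.0487). In KO their differences were 0.10 ± 0.04 and 0.09 ± 0.06 (adjusted p = 0.210 and 0.543), and the differences between genotypes were not called (adjusted p = 0.367 and 0.571). H3f3b had 1083 and 1073 CPM in KO stressed and 1195 and 1195 CPM in WT stressed, against 1026, 1003 and 988 CPM in KO normal and 934, 1014 and 1003 CPM in WT normal.

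Among 37 S phase genes, 13 were called higher in KO and 6 in WT (2.23% and 1.55% of all genes tested). In both genotypes 0 were called lower, and the medians were 0.38 and 0.22. Rrm1 and Rrm2, the subunits of the enzyme that makes deoxynucleotides, rose in both genotypes, Rrm2 by 0.60 ± 0.11 in KO and 0.83 ± 0.11 in WT (adjusted p = 0.0104 and 0.00228). Ccna2, the S phase cyclin, rose by 1.22 ± 0.15 and 0.86 ± 0.15 (adjusted p = 0.000863 and 0.00943), and Mki67, a marker of cycling cells, by 0.85 ± 0.12 and 0.76 ± 0.12 (adjusted p = 0.00254 and 0.00633). Lig1, the ligase that joins Okazaki fragments, rose by 0.50 ± 0.09 and 0.38 ± 0.09 (adjusted p = 0.00944 and 0.0470), and Tk1, thymidine kinase, by 0.70 ± 0.15 and 0.97 ± 0.15 (adjusted p = 0.0197 and 0.00454). The summed level of the list was 6582 to 7183 CPM in the stressed and 5349 to 5917 CPM in the normal libraries, so that it, the histone sum and the megakaryocyte marker sum were each higher in all stressed than in all normal libraries. The part of the S phase genes, or of the megakaryocyte markers, in the histone result was not tested.

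Between genotypes, 0 genes of these lists were called in stressed HSCs, where Ccne2, the cyclin E2 gene, differed by 0.81 ± 0.27 (adjusted p = 0.413), Cdc45, part of the replication helicase, by 0.39 ± 0.12 (adjusted p = 0.392) and Nasp, a chaperone of H1 and H3, by 0.35 ± 0.13 (adjusted p = 0.458). In normal HSCs the ribosomal RNA row Rn18s-rs5 was called higher in KO (0.25 ± 0.04, adjusted p = 0.0175), and Mcm2 differed by -0.24 ± 0.06 (adjusted p = 0.0648), H2afv by 0.31 ± 0.08 (adjusted p = 0.0795) and Mcm3 by -0.18 ± 0.05 (adjusted p = 0.130). The smallest adjusted p values of the processing list were 0.409 for Ncbp2, a cap-binding subunit, in stressed HSCs (-0.38 ± 0.13) and 0.188 for Cpsf2 in normal HSCs (-0.21 ± 0.07). For the difference between the KO and WT changes, 0 genes of these lists were called, with the smallest adjusted p values at 0.0747 for Rn18s-rs5 (-0.44 ± 0.07) and 0.231 for Mcm2 (0.37 ± 0.09).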

How the data were processed

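RNA from 10 libraries of sorted mouse HSCs was sequenced. Bowtie2, featureCounts and the mouse build mm10 are named, without versions, per the submitters' processing notes. RNA selection, strand setting and the handling of reads that match several genes are not given in the sources used here. The values the authors deposited are log2 CPM, and every library has almost identical quantiles, so differences in total RNA are not visible. Depth was estimated from the steps between low values at 25700000 to 33000000 reads, and -5.90 stands for 0 reads.

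From the deposited log2 values, the 4 groups were compared in limma 3.58.1 (R 4.3.3) with trended moderated variances, using every library. Tested were the 15143 genes that exceeded 0 in 2 or more libraries, 36 of the 52 members among them. P-values are two-sided and Benjamini-Hochberg adjusted over all of these. Class sums, levels per kb, motif matches and medians are descriptions. The fit was tested on simulated data. Coordinates and transcripts come from GENCODE vM21 (GRCm38, the mm10 build), which matched 54 of 56 histone rows by gene ID and 2 by symbol, and promoters from RefSeq.

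The members and lists were chosen with earlier results of these data known. Named are the 3 members of each class with the highest CPM per kb, every called member, the 3 largest and 3 lowest differences per comparison among separated members, and the called genes or those of smallest p in each list. Alternatives tried were other filters, a pseudocount of 1 CPM, library centring and weights, variances without a trend, only the groups compared, a replicate block and leaving out each library. Counts over members with a mean above 0, also by block and transcript end, were added after seeing the data.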

Additional observations from a re-analysis of the deposited data

Results flagged for a closer look

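The H4 gene Hist1h4d differed between genotypes in opposite directions in the 2 conditions. Every KO stressed library lay below every WT stressed library, at 91.4 and 86.4 against 94.9 and 96.3 CPM. Every KO normal library lay above every WT normal library, at 80.2, 69.3 and 81.5 against 62.1, 64.2 and 60.3 CPM. The genotype difference under stress minus that in normal HSCs was -0.41 ± 0.14 on the log2 scale, with an adjusted p of 0.423 from limma, so it did not pass the threshold. Groups hold 2 or 3 libraries, too few to search for a library that stands apart in a single gene.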

How the results depend on the processing

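Replicate letters did not pair the libraries, since libraries with the same letter had correlations of their deviations between -0.024 and 0.0375. With the letter as a replicate block, 4 members were called in KO (7 without it) and 4 in WT (8 without it). With only the groups compared in the fit, 2 were called in KO and 5 in WT. Leaving out 1 library at a time gave 2 to 7 calls in KO and 4 to 9 in WT. Where an arm was left with 1 library, that library was assumed to vary like the other groups. Between genotypes and for the difference of changes, the count was 0 in every alternative run. The 15 called differences kept their direction in all 300 recomputed values and passed the threshold in 243. Hist1h2ae in both genotypes, and Hist1h1b and Hist1h4d in WT, passed in all 20 alternatives, while Hist1h2bg in WT was lost in 10. Without the most abundant member of a class, the log2 ratio of KO over WT stressed sums was -0.064 for H2B and 0.083 for H4, both with the opposite sign, and 0.31 for H2A, and that of KO over WT normal was 0.41 for H2A. The log2 ratio of KO stressed over KO normal was then 1.04 for H2A and 0.47 for H4, and that of WT stressed over WT normal 0.57 for H2B and 0.82 for H4. The cause of these shifts was not tested. Members with few reads had SEs of up to 1.17 on the log2 scale between conditions (Hist1h3a), so that only large differences were detectable there at this depth.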
